A study of Mus musculus with 10 samples.

Results

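Complex I (NADH:ubiquinone oxidoreductase) was followed in the gastrocnemius, a calf muscle, of fasted mice through every gene whose symbol in the platform annotation starts with Ndufa, Ndufb, Ndufc, Ndufs, Ndufv or Ndufab. The assembly factors, whose symbols start with Ndufaf, were kept apart. Every probe set annotated with exactly 1 of these symbols was taken, whatever its value, which gave 78 of 45037 probe sets and 36 of 18194 genes. A probe set is a group of short probes on the array that read 1 transcript or several. A further 10 complex I probe sets carried several symbols and were left out. With them went Ndufs6 and Ndufa11, so that of 39 subunit genes listed by place in the enzyme, 36 were measured and 3 are not analysed here.

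The mice were males of 12 to 16 weeks on chow, and every one had been fasted for 18 h. One group lacked Skn-1, another name of the POU-domain transcription factor Pou2f3, and the other was wild type, with 5 arrays each that the labels call biological replicates. The deficient line arose on a mixed 129 x C57BL/6J background, with over 10 generations of backcrossing to C57BL/6J, and the labels give both groups the same background. They do not say which stretch of the gene was removed or whether the groups were littermates. The question was which transcripts differ in fasted muscle without Skn-1, and how the subunits of complex I compare between these genotypes.

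Complex I is the first enzyme of the mitochondrial respiratory chain. Its hydrophilic arm takes electrons from NADH onto flavin mononucleotide (the N module) and passes them along iron-sulphur clusters to ubiquinone (the Q module), and the membrane arm pumps protons across the inner membrane. Skeletal muscle holds much of it, since oxidation of fatty acids and carbohydrate feeds electrons to it as NADH, and fasting shifts muscle fuel towards fat. The nuclear genes described here encode core subunits that bind the flavin and the clusters, and accessory subunits that assemble around them. The membrane subunits encoded by mitochondrial DNA carry mt-Nd symbols and fall outside this group.

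The arrays read muscle. All 11 measured fast-fibre genes (means of 11.83 to 13.91) and all 11 slow-fibre genes (8.55 to 12.94) lay above the 90th percentile of probe sets. Each gene was read here by a single probe set, out of 16 for the fast-fibre and 19 for the slow-fibre genes. The array medians ran from 6.23 to 6.24, and the deposited values were taken as normalized between arrays. The medians cannot check this, since only 13.8% of probe sets had an SD over the arrays above 0.01. Among those, the median deviation from their own means ran from -0.09 in wild type 1 to 0.03 in knockout 5. The range of the values, 4.93 to 13.96, was read as log2. The Pou2f3 probe set read 6.47 ± 0.000289 (SD, n = 5) in knockouts and 6.47 ± 0.000244 (SD, n = 5) in wild types (exact two-sided permutation p = 0.571), so it does not check the labels. Epidermis or lymphocyte marker genes stood apart in 5 arrays. Epidermis and hair genes (16 of 16 measured, 18 probe sets with an SD over the arrays above 0.01) were high in knockouts 1 and 4 and wild types 1 and 3, with mean deviations of 0.53 to 1.02 from their own means against -0.51 to -0.44 in the other arrays. Lymphocyte genes (12 of 13 measured) were highest in wild type 3, at 1.53, and next in knockout 5, against -0.46 to -0.22 elsewhere. Adipocyte genes (5 of 8 measured) varied over most arrays, from -0.64 in wild type 4 and -0.39 in knockout 3 to 0.60 in wild type 3. In a bulk muscle sample, fewer cells of a type and less RNA per cell cannot be told apart.

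The genotypes overlapped in every complex I probe set analysed here. For 12 of the 36 genes no probe set had an SD over the arrays above 0.01, and overlap there says little. None of the 78 probe sets was called (limma, Benjamini-Hochberg adjusted p under 0.05), where 0.191% of all probe sets and 0.966% of those with an SD over the arrays above 0.01 were, so that a count of 0 among so few probe sets is near the background and is no result particular to the subunits. At an unadjusted p under 0.05 there was 1 of 78, against 6.62% of all probe sets. In no probe set of the 78 were the genotypes free of overlap, where 1.6% of all probe sets were, which is again close to the background. The subunits varied between arrays within each genotype. Wild type 1 held the highest value in 24 of the 40 subunit probe sets with such an SD. The 11 of these that read core subunits lay below their own means in knockouts 1 and 2. In wild type 1 they were divided, with 7 above their own mean. This order was described after the values were seen and was not tested.

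Promoters are shown for Ndufv1 and Ndufa3, because these genes took opposite places in wild type 1. Capitals mark the GC box of Ndufa3 (GGGCGG); the Ndufv1 window held none of the motifs searched. The sequences are the 250 bases before each transcription start, from RefSeq (GRCm38.p6), 5′ to 3′ on the gene's strand. Ndufv1 lies on the minus strand at chr19:4012756-4013005 and Ndufa3 on the plus strand at chr7:3617123-3617372.
Ndufv1: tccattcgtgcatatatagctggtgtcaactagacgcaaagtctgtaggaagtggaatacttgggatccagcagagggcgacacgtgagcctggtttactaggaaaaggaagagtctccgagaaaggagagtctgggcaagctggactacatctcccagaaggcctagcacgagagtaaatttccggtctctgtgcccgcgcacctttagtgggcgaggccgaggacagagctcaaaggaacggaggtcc
Ndufa3: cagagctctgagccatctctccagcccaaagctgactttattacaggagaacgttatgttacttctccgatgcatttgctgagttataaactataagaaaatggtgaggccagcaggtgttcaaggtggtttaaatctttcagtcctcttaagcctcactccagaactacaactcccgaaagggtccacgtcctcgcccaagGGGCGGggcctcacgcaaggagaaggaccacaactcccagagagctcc
The GC box begins 48 bases before the start of Ndufa3, and G and C make up 50.4% of its window and 53.6% of that of Ndufv1. Of 36 subunit genes, 32 had such a window. Each motif was searched on both strands, and hits of different motifs were counted also where they overlapped. GGGCGG was in 14 of the 32 (43.8%) and in 35.4% of all 27025 genes, and CCAAT in 9 (28.1% against 37.5%). CCGGAAG, a site of ETS factors such as Gabpa, was in 3 (9.38% against 7.83%). GCATGCGC, the core of the Nrf1 element, was in 2 (6.25% against 2.56%), and AAGGTCA, read by Esrra, in 3 (9.38% against 4.70%). A match is a run of letters in this window and no evidence of binding.

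The spread of the deposited values split the subunits in a way that bears on every comparison. Over the 10 arrays, 40 probe sets had a standard deviation (SD) above 0.01 and are called ordinary, and 38 stayed at or below it and are called low-variation. Ordinary probe sets were 51.3% of the subunits and 13.8% of all probe sets. The share went with level. With a mean at or above 10, 36 of 56 subunit probe sets were ordinary (64.3%) against 80.9% of all such probe sets, and below 10 it was 4 of 22 (18.2%) against 11.9%. Ordinary subunits had a median SD of 0.113, and low-variation ones of 0.000141. Between the classes the values were sparse, with Ndufs3 at an SD of 0.0118 just inside, Ndufa10 at 0.00616 and Ndufs8 at 0.00278 just outside, and Ndufb9 at 0.0433 as the next ordinary one. How the low-variation class arose is not given in the sources used here, and the size of a difference within it was not read as a fold change.

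**Figure D1:**
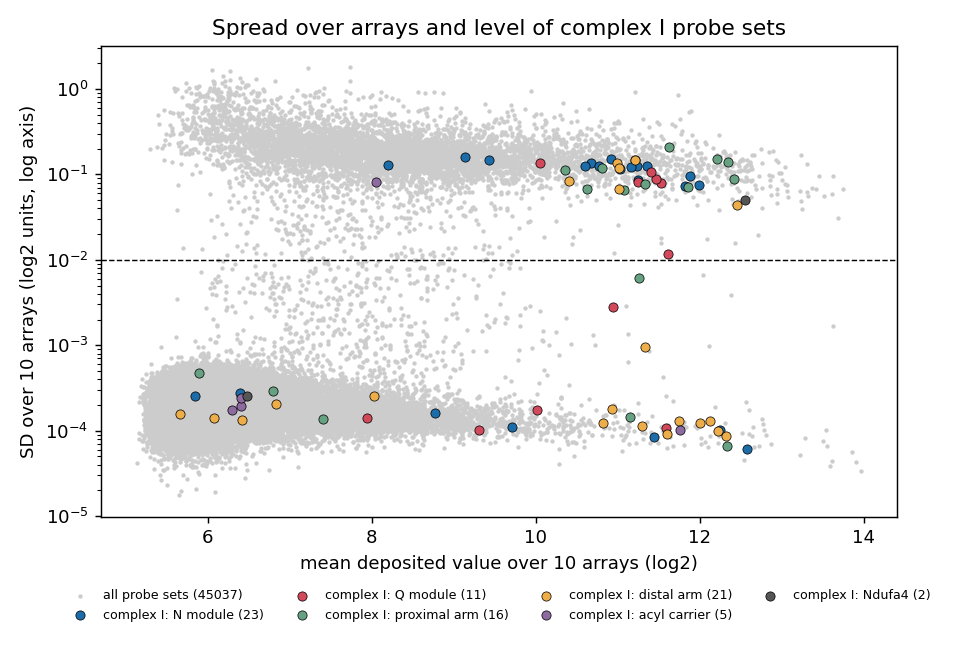
Each point is a probe set, with its mean over the 10 arrays (log2 scale) on the horizontal axis and its SD over them on a log vertical axis, subunits of complex I over all other probe sets and a line at the threshold of 0.01. The subunits fall into a cloud of 40 above the line and one of 38 under it, and bright subunits lie in both.

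Bright subunits fell into both classes. The brightest subunit probe set, of the N-module accessory subunit Ndufa12 (1455806_x_at), read 12.57 in all 10 arrays with an SD of 6.06e-05. Endings in _s_at or _x_at mark probe sets that can also match other transcripts, and 4 and 8 of the 40 ordinary ones carried them. The second brightest, of Ndufa4 (1424085_at), read 12.57, 12.59, 12.54, 12.56 and 12.48 in knockouts 1 to 5 and 12.62, 12.51, 12.46, 12.54 and 12.59 in wild types 1 to 5. Ndufa4 was first described with complex I and is now placed with complex IV, and its probe set varied little, with wild type 3 and knockout 5 lowest and wild type 1 highest. For 12 genes no probe set was ordinary: Ndufa1, Ndufa4l2, Ndufa8, Ndufa10, Ndufa12, Ndufb1, Ndufb3, Ndufb4, Ndufb5, Ndufb6, Ndufb8 and Ndufb11. For 10 genes probe sets of both classes stood side by side, and 22 of the 36 genes had an ordinary probe set as their brightest. The distal membrane arm had 6 ordinary of 21 probe sets, against 16 of 23 in the N module, 6 of 11 in the Q module and 10 of 16 in the proximal membrane arm. Of the 78 probe sets, 74 stood above the median of every array. Probe sets differ in how well they bind, so the order of their levels is not an order of RNA amounts.

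Among the ordinary subunits, differences between genotypes were small in both directions. Of the 40, 14 were higher in knockouts (35.0%), where 49.2% of all ordinary probe sets were, and 26 were lower. These 40 read 24 genes and are not 40 independent results. With 1 probe set per gene, 10 of 22 ordinary subunits were higher by the brightest probe set. By the probe set with the largest SD it was 11 of 24, and the median difference was -0.0040 both times. Of the 38 low-variation subunits, 16 were higher, where 48.6% of all probe sets were. The 40 ordinary ones had a median difference, knockout minus wild type, of -0.02 on the log2 scale, and their median size was 0.0401 against 0.0712 for all ordinary probe sets. No ordinary subunit reached an unadjusted p of 0.05, where 9.92% of ordinary probe sets did, and 0 of 40 were without overlap, where 3.96% were. Adjusted p-values (limma, Benjamini-Hochberg) began at 0.805. The largest difference came to 1.10-fold. Every 95% confidence interval lay between -0.40 and 0.24, and 30 of the 40 lay within 0.25 of 0 on both sides, which sets the size of change that these 5 against 5 arrays leave possible. A p above the threshold does not show that the genotypes were alike. The 1 subunit probe set at an unadjusted p under 0.05 was a low-variation one of Ndufab1 (1435934_at, limma adjusted p = 0.352).

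**Figure D2:**
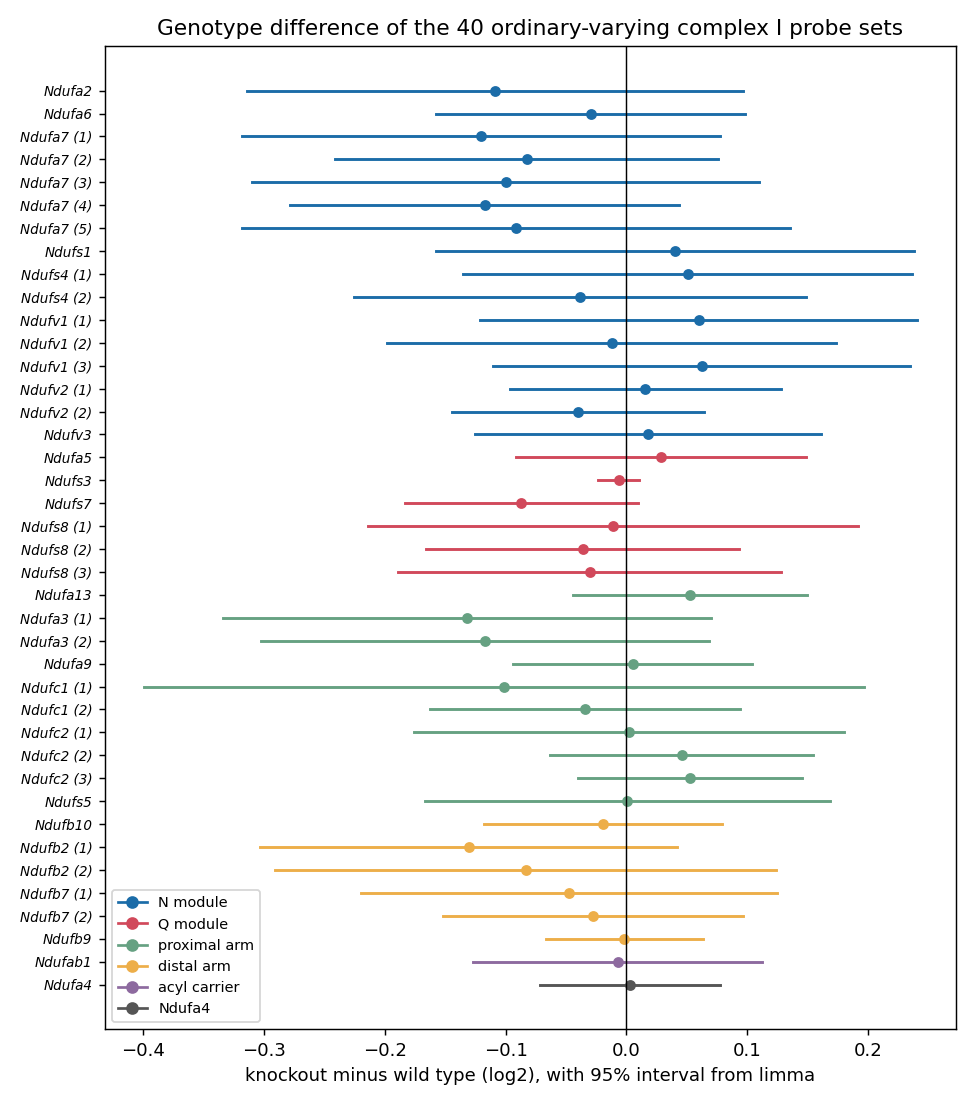
Points are the differences of the 40 ordinary subunit probe sets, knockout minus wild type on the log2 scale, with bars for the 95% confidence interval of the limma fit, ordered by module; a number in brackets tells the probe sets of 1 gene apart. All bars cross 0 and stay between -0.40 and 0.24.

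The N module takes electrons from NADH. Its 16 ordinary probe sets had a median difference of -0.03, and 6 were higher in knockouts. Ndufv1, which binds NADH and the flavin, was read by 3 ordinary probe sets. The first (1415966_a_at) read 11.12, 11.14, 11.31, 11.33 and 11.39 in knockouts 1 to 5 and 11.02, 11.31, 11.10, 11.34 and 11.23 in wild types 1 to 5. The second (1415967_at) read 10.40, 10.51, 10.73, 10.59 and 10.73 in knockouts 1 to 5 and 10.45, 10.71, 10.56, 10.74 and 10.57 in wild types 1 to 5. The third (1456015_x_at) read 11.07, 11.06, 11.25, 11.26 and 11.33 in knockouts 1 to 5 and 10.98, 11.24, 11.03, 11.25 and 11.15 in wild types 1 to 5. In the first and the third, wild type 1 was the lowest of all 10 arrays, and in the second only knockout 1 lay under it. Low and high arrays lay in both genotypes, which overlapped throughout. The differences were 0.06 ± 0.08 (SE), -0.01 ± 0.08 and 0.06 ± 0.08, so the 3 probe sets did not share a sign, and limma's adjusted p was at least 0.973. Without the 5 arrays with epidermis or lymphocyte genes, the first and the third turned to -0.07 and -0.06. These values rest on knockouts 2 and 3 against wild types 2, 4 and 5. Ndufs1, the largest subunit and a carrier of iron-sulphur clusters, read 10.52, 10.53, 10.78, 10.82 and 10.80 in knockouts 1 to 5 and 10.50, 10.79, 10.54, 10.76 and 10.65 in wild types 1 to 5. As in the first Ndufv1 probe set, wild types 1 and 3 and knockouts 1 and 2 were low and the others higher, and its difference of 0.04 ± 0.09 (SE) was within the spread.

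Ndufv2, another cluster-binding subunit of this module, varied less. Its probe set 1428179_at read 11.90, 11.95, 12.05, 12.10 and 11.98 in knockouts 1 to 5 and 12.04, 11.85, 11.98, 12.01 and 12.04 in wild types 1 to 5. The other (1452692_a_at) read 11.74, 11.69, 11.88, 11.90 and 11.77 in knockouts 1 to 5 and 11.88, 11.76, 11.82, 11.85 and 11.87 in wild types 1 to 5. Knockout 4 was the highest in both, and the differences were 0.02 and -0.04. Ndufs4, an accessory subunit whose loss in mice gives a Leigh-like brain disease, had 1418117_at at 7.97, 8.25, 8.41, 8.24 and 8.23 in knockouts 1 to 5 and 8.28, 8.11, 8.04, 8.25 and 8.17 in wild types 1 to 5. Its brighter probe set (1448959_at) read 10.59, 10.72, 10.98, 10.75 and 10.72 in knockouts 1 to 5 and 10.85, 10.58, 10.79, 10.83 and 10.90 in wild types 1 to 5. In both, knockout 3 was highest, while the lowest array was knockout 1 in the first and wild type 2 in the second. The differences were 0.05 and -0.04, each smaller than the SD of either genotype.

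Ndufa7, a small accessory subunit, had the most ordinary probe sets, and all 5 were lower in knockouts without passing the test. The brightest (1450818_a_at) read 11.41, 11.36, 11.24, 11.28 and 11.19 in knockouts 1 to 5 and 11.61, 11.30, 11.35, 11.31 and 11.50 in wild types 1 to 5. Next came 1428360_x_at with 11.07, 11.03, 10.98, 10.97 and 10.87 in knockouts 1 to 5 and 11.23, 10.91, 11.04, 10.96 and 11.19 in wild types 1 to 5. After it came 1436567_a_at with 10.99, 10.92, 10.83, 10.91 and 10.69 in knockouts 1 to 5 and 11.20, 10.77, 10.94, 10.85 and 11.08 in wild types 1 to 5. In each of them wild type 1 was highest, wild type 5 stood next to it and knockout 5 was lowest. The dimmer 1422976_x_at read 9.52, 9.41, 9.34, 9.35 and 9.23 in knockouts 1 to 5 and 9.75, 9.36, 9.42, 9.37 and 9.56 in wild types 1 to 5. The dimmest, 1455749_x_at, read 9.27, 9.15, 9.04, 9.04 and 8.97 in knockouts 1 to 5 and 9.48, 9.03, 9.10, 9.03 and 9.28 in wild types 1 to 5. This last one had the second widest spread of the subunits, again with wild type 1 highest and knockout 5 lowest. The differences ran from -0.12 to -0.08, with SEs of 0.07 to 0.10 and limma adjusted p of 0.89 or more. Without wild type 1 the brightest came to -0.07 and 1455749_x_at to -0.02. These probe sets read 1 gene and are not 5 independent results. The other N-module subunits with ordinary variation, Ndufa2, Ndufa6 and Ndufv3, had wild type 1 highest too, with differences of -0.11, -0.03 and 0.02.

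The Q module hands electrons to ubiquinone. Its subunit Ndufs7, which binds the last cluster before ubiquinone, had the smallest limma p of the ordinary subunits. Its ordinary probe set (1451312_at) read 11.46, 11.37, 11.59, 11.53 and 11.47 in knockouts 1 to 5 and 11.63, 11.52, 11.55, 11.63 and 11.53 in wild types 1 to 5. The 3 lowest arrays were knockouts 2, 1 and 5, but knockout 3 stood above 3 of the wild types, so the groups overlapped. The mean was 11.49 ± 0.0815 (SD, n = 5) in knockouts and 11.57 ± 0.0517 (SD, n = 5) in wild types, a difference of -0.09 ± 0.04 (SE; 95% confidence interval -0.18 to 0.01; limma adjusted p = 0.805). Without knockout 3 it reached an unadjusted limma p under 0.05 and was not called. The other Ndufs7 probe set, 1424313_a_at, was low-variation at a level like it, 11.59, and gave no size to set beside this.

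Ndufs8, which carries clusters between Ndufs1 and Ndufs7, had 3 ordinary probe sets. The first (1423908_at) read 9.92, 9.90, 10.12, 10.18 and 10.11 in knockouts 1 to 5 and 10.14, 9.82, 9.98, 10.14 and 10.22 in wild types 1 to 5. The second (1434579_x_at) read 11.38, 11.29, 11.51, 11.59 and 11.46 in knockouts 1 to 5 and 11.56, 11.43, 11.41, 11.49 and 11.53 in wild types 1 to 5. The third (1455283_x_at) read 11.28, 11.20, 11.46, 11.54 and 11.48 in knockouts 1 to 5 and 11.51, 11.32, 11.40, 11.43 and 11.46 in wild types 1 to 5. Knockouts 1 and 2 were low and knockout 4 was high in all of them, and wild type 2 was the lowest array in the first alone. The differences, -0.01, -0.04 and -0.03, were smaller than either genotype's SD. Ndufs3, a core subunit without a cluster, had the smallest spread among ordinary subunits, with 11.60, 11.61, 11.62, 11.63 and 11.61 in knockouts 1 to 5 and 11.63, 11.60, 11.61, 11.63 and 11.62 in wild types 1 to 5. Its difference was -0.01 ± 0.01 (SE). The accessory Ndufa5 was 0.03 higher in knockouts, inside a spread led by wild type 1 at 11.40.

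The proximal membrane arm lies next to the Q module. Of its 10 ordinary probe sets, 6 were higher in knockouts. Ndufa3, a small membrane subunit, gave the largest differences of all ordinary subunits together with Ndufb2. Its probe set 1428464_at read 12.32, 12.17, 12.11, 12.09 and 12.01 in knockouts 1 to 5 and 12.53, 12.09, 12.24, 12.20 and 12.30 in wild types 1 to 5. The brighter 1452790_x_at read 12.45, 12.30, 12.22, 12.26 and 12.16 in knockouts 1 to 5 and 12.66, 12.26, 12.35, 12.33 and 12.38 in wild types 1 to 5. In both, wild type 1 was highest by a clear step, knockout 1 was the next highest, and knockout 5 was lowest. The differences were -0.13 ± 0.09 (SE; limma adjusted p = 0.916) and -0.12 ± 0.08 (adjusted p = 0.925). Without wild type 1 they came to -0.07 and -0.05. Ndufc1, another small membrane subunit, had the widest spread of all ordinary subunits, an SD of 0.207, in 1416285_at. That probe set read 11.76, 11.65, 11.59, 11.49 and 11.36 in knockouts 1 to 5 and 12.08, 11.47, 11.52, 11.52 and 11.77 in wild types 1 to 5. Its second probe set (1448284_a_at) read 12.42, 12.32, 12.45, 12.42 and 12.36 in knockouts 1 to 5 and 12.62, 12.31, 12.38, 12.38 and 12.45 in wild types 1 to 5. Wild type 1 led both, and the first ranged over 0.72 between arrays, or 1.65-fold, against a difference of -0.10 ± 0.13 (SE) between genotypes. Without wild type 1 that difference became 0.00082.

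Ndufc2 and Ndufa13 lay on the other side of 0. Ndufc2 was read by 1416366_at at 10.66, 10.81, 10.90, 10.89 and 10.76 in knockouts 1 to 5 and 10.87, 10.54, 10.91, 10.85 and 10.83 in wild types 1 to 5. Its 1455036_s_at read 11.30, 11.40, 11.35, 11.38 and 11.31 in knockouts 1 to 5 and 11.46, 11.27, 11.22, 11.34 and 11.22 in wild types 1 to 5. Its 1460506_s_at read 10.57, 10.65, 10.68, 10.71 and 10.63 in knockouts 1 to 5 and 10.71, 10.50, 10.57, 10.59 and 10.61 in wild types 1 to 5. Wild type 2 was the lowest array in the first and the third, and the differences were 0.00, 0.05 and 0.05. Without wild type 1, the last 2 and Ndufv3 reached an unadjusted limma p under 0.05, all higher in knockouts, and none was called. Ndufa13, also known as GRIM-19, read 11.81, 11.88, 11.85, 11.97 and 11.89 in knockouts 1 to 5 and 11.93, 11.76, 11.75, 11.86 and 11.85 in wild types 1 to 5. Knockout 4 was highest and wild types 2 and 3 lowest, with a difference of 0.05 ± 0.04 (SE; limma adjusted p = 0.941). Ndufa9, which holds a bound nucleotide near the ubiquinone site, was counted with this arm by the list used here. Ndufa9 and Ndufs5 differed by 0.01 and 0.00.

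All 6 ordinary probe sets of the distal membrane arm were lower in knockouts, with a median difference of -0.04, and none passed the test. They come from 4 genes. For Ndufb2, 1416834_x_at read 11.05, 10.82, 10.99, 10.95 and 10.82 in knockouts 1 to 5 and 11.26, 10.89, 11.01, 11.00 and 11.11 in wild types 1 to 5. Its 1448483_a_at read 11.11, 10.98, 11.25, 11.29 and 11.18 in knockouts 1 to 5 and 11.29, 10.95, 11.35, 11.32 and 11.32 in wild types 1 to 5. The first had wild type 1 highest, and the second had wild types 3, 4 and 5 highest with wild type 2 lowest. The differences were -0.13 ± 0.08 (SE; limma adjusted p = 0.879) and -0.08 ± 0.09, and the first came to -0.08 without wild type 1. Without wild type 2 both reached an unadjusted limma p under 0.05, and neither was called. For Ndufb7, 1416417_a_at read 10.85, 10.85, 11.09, 11.10 and 11.05 in knockouts 1 to 5 and 11.20, 10.89, 10.99, 11.03 and 11.07 in wild types 1 to 5. Its 1448331_at read 10.39, 10.38, 10.43, 10.39 and 10.37 in knockouts 1 to 5 and 10.61, 10.37, 10.29, 10.37 and 10.45 in wild types 1 to 5. Knockouts 1 and 2 were low in the first alone, and the differences were -0.05 and -0.03. Ndufb9, with the second smallest spread, read 12.43, 12.41, 12.46, 12.50 and 12.43 in knockouts 1 to 5 and 12.51, 12.39, 12.40, 12.44 and 12.49 in wild types 1 to 5. Its difference was -0.0016, and its sign turned under quantile normalization. Ndufb10 differed by -0.02. Ndufab1, the mitochondrial acyl carrier protein, sits in both arms and had 1 ordinary probe set, which differed by -0.01.

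**Figure D3:**
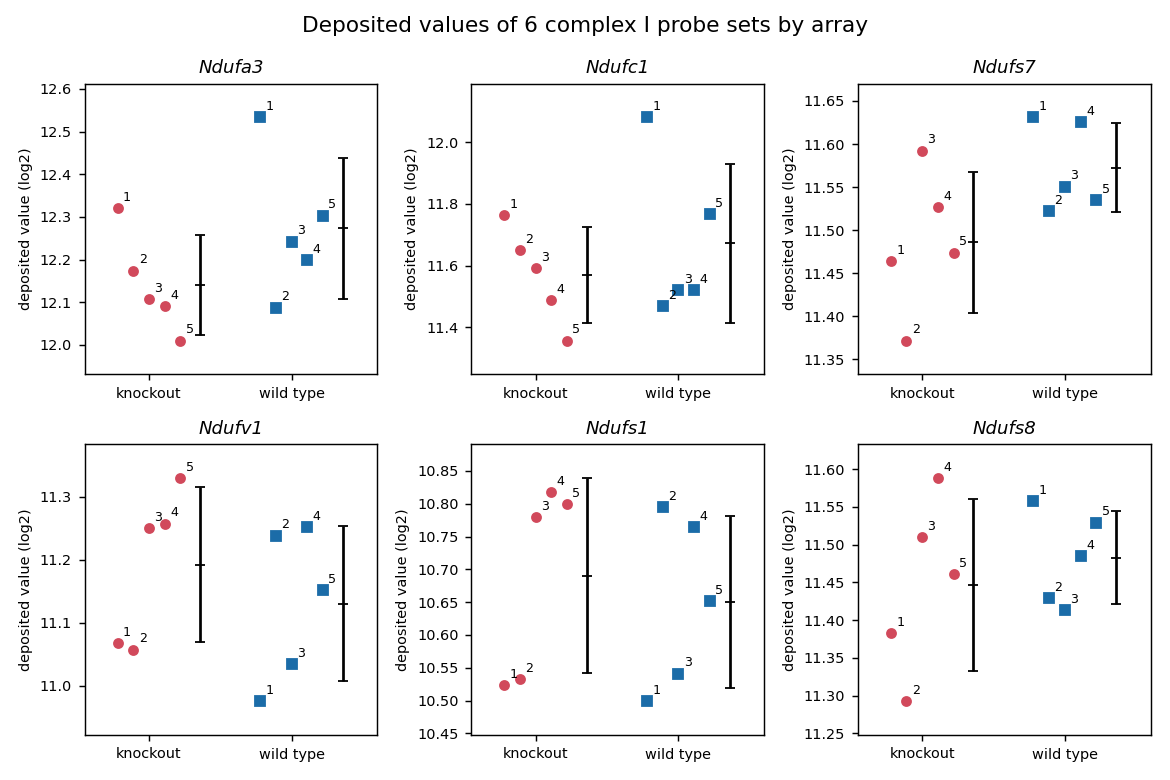
The deposited log2 values of 6 genes (for each, the ordinary probe set with the smallest limma p) are plotted by genotype, each point 1 array marked with its replicate number and each bar the mean ± SD of 5 arrays. Wild type 1 stands at the top for Ndufa3 and Ndufc1 and at the bottom for Ndufv1 and Ndufs1, and knockouts 1 and 2 are low for Ndufs7, Ndufv1, Ndufs1 and Ndufs8.

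The array that stood out most was wild type 1. It held the highest value in 24 of 40 ordinary subunit probe sets, from 17 genes (60.0%, against 16.5% of all ordinary probe sets), and the lowest in 3, which were the Ndufs1 and 2 of the Ndufv1 probe sets (7.5%, against 25.2% of all ordinary probe sets). Ndufa3 and Ndufv1, whose promoters are printed above, went opposite ways in this array. The mean deviation of the subunits from their own means was 0.13 there, where that of all ordinary probe sets was -0.07. Wild type 2 had the lowest value in 13, where it was lowest in 8.65% of all ordinary probe sets, and a mean deviation of -0.08. Accessory subunits, counted here as all genes outside the core and so with Ndufa4, carried this. Of their 29 ordinary probe sets, 28 were above their own mean in wild type 1 (mean deviation 0.19), all but that of Ndufa9. All 29 lay below their own mean in wild type 2 (-0.11). Knockout 5 was also low, with 24 of 29 below their mean (-0.08).

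The 11 ordinary probe sets of the 6 core genes, Ndufv1, Ndufv2, Ndufs1, Ndufs3, Ndufs7 and Ndufs8, had another order in several arrays. All 11 lay below their own mean in knockout 1 (mean deviation -0.10) and in knockout 2 (-0.12), and all 11 lay above it in knockout 3 (0.07) and wild type 4 (0.07). In wild type 1 they averaged -0.02 and were divided, with 7 above their own mean, among them Ndufs7 at its highest, and 4 below it, those of Ndufs1 and Ndufv1. Low and high arrays thus occurred within each genotype, and 4 of the 11 core and 10 of the 29 accessory probe sets were higher in knockouts. Part of this order was not particular to the core genes. The 6 ordinary probe sets of the distal membrane arm, all accessory, averaged -0.05 and -0.11 in knockouts 1 and 2. They averaged 0.04 and 0.03 in knockouts 3 and 4, but 0.16 in wild type 1. The accessory means also weigh some genes more than others, since 5 of the 29 probe sets read Ndufa7. This division was described after the values were seen and was not tested.

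**Figure D4:**
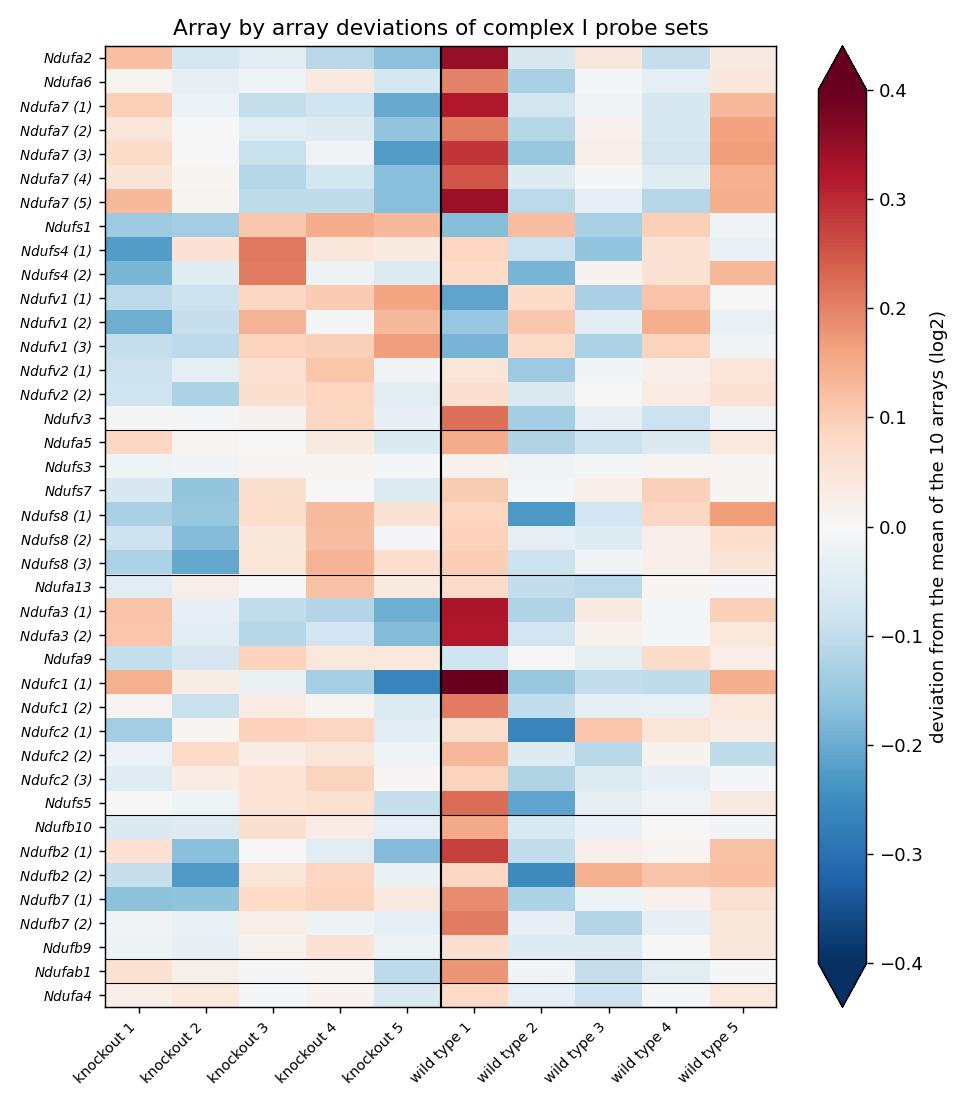
Rows are the 40 ordinary subunit probe sets by module and columns the 10 arrays; colour gives the deviation from the probe set's own mean on the log2 scale. Wild type 1 is above the mean in most rows and below it for Ndufs1, Ndufv1 and Ndufa9, and wild type 2 is below it for all accessory subunits.

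Marker genes of other tissues and of fibre types were set beside these deviations. Epidermis genes were high in wild type 1 (mean deviation 0.53) and also in knockouts 1 and 4 and wild type 3, where the subunits averaged -0.03, 0.03 and -0.03. Fast-fibre genes averaged -0.13 in wild type 1, and 0.11 in both knockouts 3 and 4. Slow-fibre genes were highest in wild type 2 (0.29) and lowest in knockout 3 (-0.26). The part of these markers in the subunit values was not tested. Without the 5 arrays with epidermis or lymphocyte genes, knockouts 2 and 3 and wild types 2, 4 and 5 were left. A fit to these had 17 of 40 ordinary subunits higher in knockouts. That fit called 0 of all 45037 probe sets, with 2672 at an unadjusted limma p under 0.05, so its lack of called subunits says nothing about them. Without the 2 arrays with lymphocyte genes, 11 of 40 were higher. Without wild type 1, 21 of 40 were higher with a median difference of 0.0017. Without knockout 4, 9 of 40 were higher.

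The other complexes of the chain served as a comparison, and limma called 0 of their probe sets. The complex II list of 8 genes holds the assembly factors Sdhaf1, Sdhaf2, Sdhaf3 and Sdhaf4 beside the subunits Sdha, Sdhb, Sdhc and Sdhd. Its counts and means do not tell these apart. At an unadjusted p under 0.05 there were 2 of 23 for the assembly factors, 1 of 15 for complex II, 0 of 17 for complex III, 3 of 31 for complex IV and 1 of 30 for ATP synthase. Over all probe sets 0.191% were called and 6.62% had an unadjusted p under 0.05, and counts this small are not told apart from those shares. Assembly factors of complex I had 1 of 5 ordinary probe sets higher in knockouts, and wild type 1 was highest in all 5. Their named members were Ndufaf6 (-0.09) and Ndufaf8 (-0.10). In the complex II list it was 4 of 6, with Sdhd at -0.10 and Sdha, the flavin-binding subunit, at 0.10, and wild type 1 highest in 33.3%. Like the core subunits of complex I, these 6 averaged low in knockouts 1 and 2 (-0.08 and -0.11). They averaged high in knockouts 3 and 4 (0.06 and 0.08) and in wild type 4 (0.06), as the core subunits did. In wild types 1 and 5 they averaged 0.05 and -0.04, against -0.02 and 0.03 for the core subunits. This likeness was not tested. In complex III 3 of 12 were higher in knockouts, with Uqcrq at -0.14 and Uqcr10 at -0.13, and wild type 1 highest in 66.7%. Complex IV had 3 of 18 higher and wild type 1 highest in 72.2%. Its Cox7a2l differed by -0.18 (limma adjusted p = 0.633) and Cox7a1, the muscle form, by -0.07. For ATP synthase the count was 5 of 14, with Atp5l at -0.22 (limma adjusted p = 0.179), Atp5e at -0.18, and wild type 1 highest in 57.1%. Wild type 1 was thus the highest array in most ordinary probe sets of complexes III and IV and of ATP synthase too.

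Regulators of respiratory chain genes had 0 of 26 probe sets called by limma and 4 at an unadjusted p under 0.05, where 0.191% and 6.62% of all probe sets were. Those 4 were among 7 ordinary probe sets, where 9.92% of all ordinary ones had such a p. All 4 read 1 gene, Ppargc1a, so they are not 4 independent results and no result for the list as a whole. Of the 7 ordinary probe sets, 5 were higher in knockouts. The median difference of all 7, at least 4 of them of Ppargc1a, was 0.66. Ppargc1a, a coactivator that drives mitochondrial genes in muscle and answers to fasting, had 8.59 ± 0.801 (SD, n = 5) in knockouts and 7.60 ± 0.203 (SD, n = 5) in wild types. Its difference of 0.99 ± 0.36 (SE) did not pass (limma adjusted p = 0.633), and knockout 1, at 7.61, lay among the wild types. Ppargc1b differed by -0.09.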

How the data were processed

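Total RNA of gastrocnemius from 10 mice (100 ng each, per the labels' protocols) was labelled with a 3′ IVT kit and read on Affymetrix mouse genome arrays. The values deposited by the authors were taken as log2 from their range and as normalized between arrays. Their level medians rest mostly on low-variation probe sets and do not check the latter. The sources used here give neither log base nor software. Of 45101 rows, 64 controls were left out and 45037 probe sets tested, of which 34945 carry 1 gene symbol in the platform annotation, 932 several and 9160 none here. All 36 subunit genes matched a RefSeq gene table (GRCm38.p6).

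Genotypes were compared over all probe sets in R 4.3.3 by limma 3.58.1, using eBayes with neither trend nor block, with Benjamini-Hochberg adjustment and a threshold of 0.05. Fits were tested on simulated data. Only 2 of 5 pairs of arrays with the same replicate number deviated together (correlations of -0.40 to 0.32), so the numbers were taken as names. The labels call the arrays biological replicates and do not give litters or batches, so p-values measure the spread between these samples.

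The subunits and all lists were chosen with earlier results of these data known. Values in every array are given for the 5 ordinary probe sets with the smallest p in each direction, the 3 with the widest and 2 with the smallest spread, the 2 brightest subunits and genes with at least 2 ordinary probe sets. Ndufs1 was added after its values were seen. In other lists up to 2 genes are named, by smallest p. Alternatives were centring, quantile normalization, other eBayes settings, array weights, the replicate block, filters on level and SD, 1 probe set per gene, an exact permutation test, each array left out and, chosen after seeing the data, arrays with genes of other tissues left out. Tables used pandas 2.3.3 and numpy 2.4.6, figures matplotlib 3.10.9, under Python 3.11.15.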

Additional observations from a re-analysis of the deposited data

Results flagged for a closer look

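Within a genotype, the highest or lowest array was set against its nearest neighbour in 80 groups of 5 arrays (40 ordinary subunit probe sets in both genotypes). In 3 of them the gap was above Dixon's critical value of 0.71 of the whole range, and chance gives about 1 in 20, or 4. Wild type 1 stood high for Ndufb10 (1428322_a_at) at 11.16, with the next wild type at 11.01. Wild type 2 stood low for Ndufb2 (1448483_a_at) at 10.95, with the next at 11.29, and for Ndufc2 (1416366_at) at 10.54, with the next at 10.83.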

How the results depend on the processing

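No subunit was called under 23 alternatives (21 planned, 2 added after seeing the data), and 0 to 5 had an unadjusted p under 0.05. The exact permutation test, and limma without the 5 arrays with epidermis or lymphocyte genes, called 0 of all 45037 probe sets, so both say nothing about stability; the former has 252 splits, too few to pass adjustment here. The lowest adjusted p of any subunit was 0.121, without wild type 5, and of an ordinary one 0.535. Of the ordinary subunits, 14 of 40 were higher in knockouts. With single arrays left out this count ran from 9 (without knockout 4) to 21 (without wild type 1). In the other settings with all 40 it ran from 11 to 17. With 1 probe set per gene it was 10 of 22 by highest mean and 11 of 24 by highest SD. Other SD thresholds gave 37 to 41 ordinary subunits. Of 15 named probe sets, 10 kept their sign in all alternatives. Without the 5 arrays with epidermis or lymphocyte genes, Ndufv1 turned to -0.0601 (1456015_x_at) and -0.0652 (1415966_a_at) and Ndufc1 (1416285_at) to 0.0355. Only knockouts 2 and 3 and wild types 2, 4 and 5 were left there. Ndufb9 turned to 0.0167 after quantile normalization and 0.0022 with array weights, and Ndufa4 to -0.0012 without the arrays with lymphocyte genes. With single arrays left out, Ndufc1 ran from -0.15 to 0.00082, Ndufb9 from -0.0161 to 0.0140 and Ndufa4 from -0.0170 to 0.0229; the cause was not tested. The fit with the replicate block, whose numbers were not found to pair the arrays, called 0 subunits, kept 14 of 40 higher and called 5 of all probe sets, where the fit without it called 86; 2 of 5 knockouts correlated best with the wild type of their number. With 5 arrays a genotype, the median 95% confidence interval of an ordinary subunit reached 0.160 (log2) to each side. Low-variation probe sets limit the account to 24 of 36 genes.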
